A study of Mus musculus with 16 samples.

Results

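The genes described here are 10 lysosomal proteases, namely the cathepsins Ctsb, Ctsl, Ctss, Ctsk, Ctsh, Ctsc, Ctsz, Ctsd and Ctsa and the asparaginyl endopeptidase legumain, Lgmn. They were taken by symbol from 17097 mouse genes measured on arrays, and each is represented by the 1 of its probe sets with the highest mean over all 16 arrays, out of 19 probe sets in all. The probe sets were chosen by level alone, and the list of genes was drawn up with earlier results of these data known. The arrays carry RNA of macrophages from the fat of mice aged 19–21 weeks, in 4 groups of 4 pools each. KO-LysM VAT and KO-LysM SAT are cells from visceral (VAT) and subcutaneous (SAT) adipose tissue of LysM-Sucnr1-/- mice, in which Cre recombinase under the lysozyme M promoter, active in myeloid cells, deletes floxed Sucnr1, the receptor for extracellular succinate. WT VAT and WT SAT are the same cells of Sucnr1flox/flox mice, which carry the floxed alleles, and the labels name no Cre in them, so that Cre itself and the loss of Sucnr1 cannot be told apart. Fat was digested with collagenase and CD11b beads selected the cells, although another label names the surface protein encoded by Adgre1. RNA of 300000 cells per pool went through 24 cycles of cDNA amplification. All groups also carry the label NCD, which is not spelled out. Day 1 and day 2 each hold 2 pools of every group. The number of animals per pool, their strain and whether 1 pool number stands for the same animals in both depots are not given in the sources used here. Every array is therefore 1 replicate of a pool, and p-values measure the spread between pools.

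Cathepsins are made as inactive precursors, sorted to the lysosome on mannose 6-phosphate receptors and activated there by acid and by other proteases. Cathepsins B, L, S, K, H, C and Z are papain-like cysteine proteases, cathepsin D is an aspartic protease, and cathepsin A is a serine carboxypeptidase. In macrophages of fat they degrade the content of phagosomes and dead adipocytes, trim antigens and the invariant chain for MHC class II, and, when secreted, cut matrix proteins. Legumain cleaves after asparagine and processes several cathepsin precursors.

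Promoters are shown for 5 members. Ctsk and Ctsl are the 2 for which the difference of knockout effects between depots passed, and Ctsd and Ctsa varied together over the arrays. Ctss passed in no comparison and is the near neighbour of Ctsk on chromosome 3, with 1 gene between them. The sequences are RefSeq windows of build GRCm38.p6, 5′ to 3′ on the gene's strand, from 250 bases before to 50 bases after a transcription start, which is position 0. Capitals mark the motifs searched on both strands: CACGTG, the core bound by TFEB and other basic helix-loop-helix factors; TCACGTGA, which contains it and is the centre of the element through which TFEB acts on lysosomal genes; an interferon type element, written GAAA, any 2 bases and GAAA again; and GAGGAAGT, a PU.1 type site. The windows are Ctsk (chr3:95498960-95499259, plus strand), Ctsl (chr13:64370471-64370770, minus strand), Ctss (chr3:95526536-95526835, plus strand), Ctsd (chr7:142387778-142388077, minus strand) and Ctsa (chr2:164833523-164833822, plus strand).
Ctsk: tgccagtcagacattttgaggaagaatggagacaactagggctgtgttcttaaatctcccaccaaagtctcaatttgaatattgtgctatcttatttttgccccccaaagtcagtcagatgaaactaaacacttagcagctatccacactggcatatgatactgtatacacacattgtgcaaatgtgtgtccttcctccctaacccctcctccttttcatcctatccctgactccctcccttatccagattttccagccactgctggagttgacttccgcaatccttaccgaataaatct
Ctsl: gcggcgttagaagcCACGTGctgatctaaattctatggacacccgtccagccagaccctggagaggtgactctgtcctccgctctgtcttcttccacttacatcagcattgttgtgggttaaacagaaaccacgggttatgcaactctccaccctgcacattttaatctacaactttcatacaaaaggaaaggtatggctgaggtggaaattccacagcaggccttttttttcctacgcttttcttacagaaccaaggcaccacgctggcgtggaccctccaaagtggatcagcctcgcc
Ctss: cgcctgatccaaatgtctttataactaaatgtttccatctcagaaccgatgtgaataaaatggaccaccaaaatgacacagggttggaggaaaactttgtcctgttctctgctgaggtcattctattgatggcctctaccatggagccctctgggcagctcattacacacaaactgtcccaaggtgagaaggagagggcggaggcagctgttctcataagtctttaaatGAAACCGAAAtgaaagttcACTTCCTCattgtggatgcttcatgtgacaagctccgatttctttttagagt
Ctsd: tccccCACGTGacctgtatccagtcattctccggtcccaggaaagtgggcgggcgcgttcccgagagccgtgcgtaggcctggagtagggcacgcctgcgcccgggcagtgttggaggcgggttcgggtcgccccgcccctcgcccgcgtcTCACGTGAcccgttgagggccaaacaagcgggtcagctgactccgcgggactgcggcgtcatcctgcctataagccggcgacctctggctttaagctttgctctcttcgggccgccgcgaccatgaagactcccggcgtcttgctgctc
Ctsa: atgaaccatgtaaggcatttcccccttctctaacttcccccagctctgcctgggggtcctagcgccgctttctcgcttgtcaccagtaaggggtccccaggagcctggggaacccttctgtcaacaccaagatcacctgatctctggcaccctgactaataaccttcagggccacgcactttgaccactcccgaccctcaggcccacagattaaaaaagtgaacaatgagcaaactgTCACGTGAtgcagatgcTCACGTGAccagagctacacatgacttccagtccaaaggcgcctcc
TCACGTGA lay in Ctsa from -13 to -6 and again from 4 to 11, and in Ctsd from -99 to -92, and 0.974% of 32851 mouse promoter windows of this length hold it. The shorter CACGTG was also found in Ctsl, from -236 to -231, and in 1 of the Lgmn windows, and 7.15% of all windows hold it. The interferon type element was found in Ctss alone among the members, from -21 to -12, against 3.44% of all windows. GAGGAAGT lay in Ctss from -2 to 5 and in Ctsc from -151 to -144, against 3.2% of all windows. None of these letters occurred in the Ctsk window. There are 10 windows for 8 of the 10 members, 2 of them each for Ctsa and Lgmn. The other Ctsa window, chr2:164832622-164832921, lies at the annotated 5′ end of the gene and held no motif. The Ctsa window shown lies inside the annotated gene (164832872-164841032). So do the Ctsl window shown (gene 64361890-64370772) and the Lgmn window with CACGTG (gene 102394082-102439728). The windows shown for Ctsk, Ctss and Ctsd are those at the annotated 5′ ends. Ctsb and Ctsh are named only.

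Values are RMA summaries of probe sets in log2, deposited by the authors, that ran from 2.91 to 13.19, and array data have no read depth. All changes below are differences of group means on this log2 scale with the standard error of a limma fit to all 16 arrays with day as a term. A gene rose or fell where its Benjamini-Hochberg adjusted p over 17097 genes was under 0.05, two-sided. Probe sets have their own sensitivity, so levels are compared between groups and not between genes. Sucnr1 averaged 3.53, 3.52, 3.55 and 3.54 in KO-LysM VAT, WT VAT, KO-LysM SAT and WT SAT, under the 4.78 that marks the 95th percentile of 41 olfactory receptor genes and serves as the background level here. It therefore does not check the genotype labels. Depot genes also ran in opposite directions in the 2 genotypes: Emx2, a homeobox gene of body position, averaged 8.50 in KO-LysM VAT and 5.24 in KO-LysM SAT, but 5.45 in WT VAT and 6.78 in WT SAT. Muscle Tnnc2 averaged 7.49 in KO-LysM VAT and 5.36 in KO-LysM SAT, against 5.64 in WT VAT and 9.80 in WT SAT. Svs4, a seminal vesicle gene, averaged 11.44 in KO-LysM SAT and between 3.76 and 4.76 in the other groups. The depots are therefore named as labelled throughout, and the comparison averaged over depots has the same value if the depot labels of 1 genotype are exchanged. The interquartile range of an array was 2.503 ± 0.109 for KO-LysM and 2.251 ± 0.186 for WT (SD, n = 8 each), 0.25 apart (two-sided p = 0.00699 in an exact permutation test). The 14 macrophage markers were all above background in all 4 groups, Cd68 averaging 10.75 in KO-LysM VAT, 11.14 in WT VAT, 11.39 in KO-LysM SAT and 11.47 in WT SAT.

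Among the cysteine endopeptidases, Ctsk and Ctsl had higher means in KO-LysM VAT and WT SAT than in WT VAT and KO-LysM SAT. The knockout effect on them was opposite in sign in the 2 depots, and the difference between the 2 effects passed for both, where 4.22% of all genes passed that test, 2.1% with a positive and 2.12% with a negative difference. None of the other 8 members passed it.

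Ctsk, cathepsin K, is the collagen-cutting protease best known from osteoclasts and is also made by fibroblasts and some macrophages. Its log2 values were 10.22, 9.94, 10.10 and 10.11 in KO-LysM VAT pools 1 to 4 and 8.73, 9.15, 9.61 and 9.62 in WT VAT. In SAT they were 9.28, 9.16, 9.46 and 9.53 in KO-LysM pools and 9.66, 9.89, 9.91 and 9.73 in WT pools. All KO-LysM VAT pools thus lay above all WT VAT pools, and all KO-LysM SAT pools lay below all WT SAT pools. Ctsk rose by 0.82 ± 0.14 in KO-LysM VAT against WT VAT, a 1.76-fold change (limma, adjusted p = 0.00168), and fell by 0.44 ± 0.14 in KO-LysM SAT against WT SAT, 1.36-fold (adjusted p = 0.0235). The difference between these 2 effects was 1.26 ± 0.19 (adjusted p = 0.00104). On day 1 alone it was 1.70 and on day 2 alone 0.82. The fall in SAT did not pass without WT SAT pool 2 (-0.36, adjusted p = 0.0539), KO-LysM SAT pool 2 (-0.41, adjusted p = 0.0555) or KO-LysM SAT pool 3 (-0.43, adjusted p = 0.0542). It also did not pass without the day term (adjusted p = 0.0634), on day 1 alone (0.111) or with arrays centred on their medians (-0.35, adjusted p = 0.102). The rise in VAT passed without any 1 array, but was 0.49 on day 2 alone with an adjusted p of 0.064.

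Ctsl, cathepsin L, a broad endopeptidase that also processes the invariant chain in thymic epithelium, had the same 2 groups higher, although WT SAT and not KO-LysM VAT was the highest. Its values were 11.81, 11.68, 11.84 and 11.79 in KO-LysM VAT and 11.30, 11.56, 11.60 and 11.69 in WT VAT. They were 11.62, 11.64, 11.70 and 11.58 in KO-LysM SAT and 12.01, 12.15, 12.14 and 12.10 in WT SAT. WT SAT stood above the other 12 arrays without overlap, whereas KO-LysM VAT pool 2 lay just under WT VAT pool 4. Ctsl fell by 0.46 ± 0.08 in KO-LysM SAT against WT SAT, 1.38-fold (adjusted p = 0.00114), and this held without any 1 array. It rose by 0.24 ± 0.08 in KO-LysM VAT against WT VAT (adjusted p = 0.0488), but that rise passed in only 3 of the 16 fits that left out 1 array, and without WT VAT pool 1 it was 0.17 (adjusted p = 0.142). The 2 effects differed by 0.70 ± 0.11 (adjusted p = 0.00123), or by 0.76 on day 1 alone with an adjusted p of 0.0889 and by 0.65 on day 2 alone. A second Ctsl probe set averaged 6.25 ± 0.19, 5.89 ± 0.30, 5.81 ± 0.14 and 6.38 ± 0.20 in KO-LysM VAT, WT VAT, KO-LysM SAT and WT SAT (SD, n = 4 each), the same order of the 2 higher and the 2 lower groups.

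**Figure D1:**
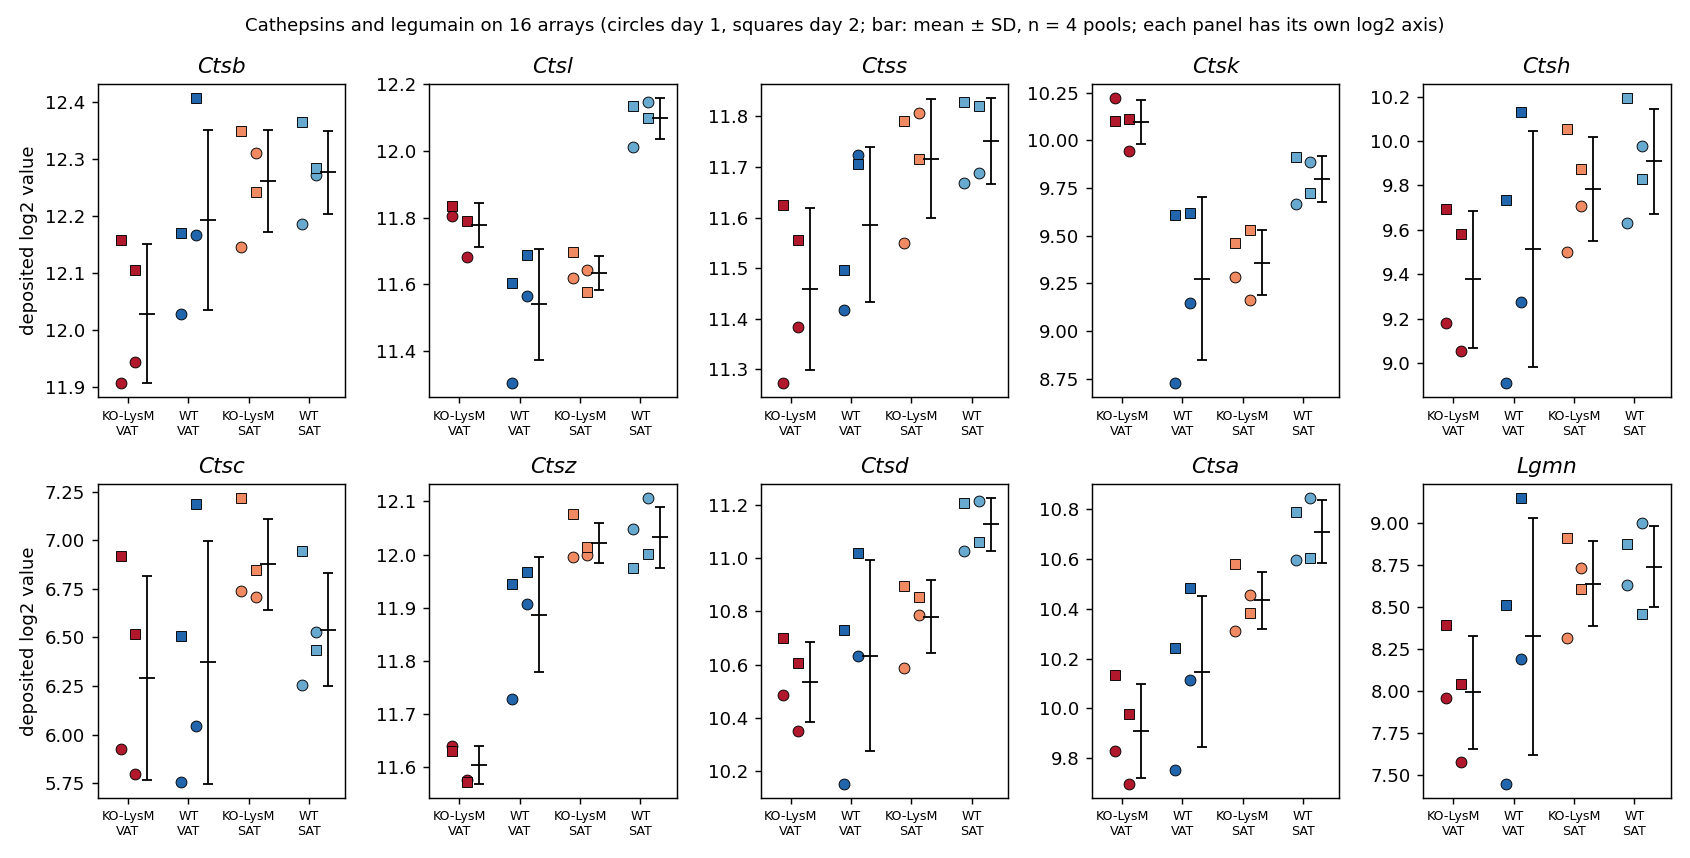
Deposited log2 values (y axis, a separate scale in each panel) of the 10 proteases in the 4 groups (x axis), with circles for day 1 pools, squares for day 2 pools and a bar for mean ± SD (n = 4). The 4 KO-LysM VAT pools of Ctsk lie above all other arrays, from 9.94 to 10.22, and the 4 WT SAT pools of Ctsl lie above all others, from 12.01 to 12.15.

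Ctsb, cathepsin B, an endopeptidase and carboxypeptidase that can leak from damaged lysosomes, averaged 12.03 ± 0.12 in KO-LysM VAT, 12.19 ± 0.16 in WT VAT, 12.26 ± 0.09 in KO-LysM SAT and 12.28 ± 0.07 in WT SAT (SD, n = 4 each). Its groups overlapped in every comparison and none passed; its change was -0.16 (adjusted p = 0.132) in KO-LysM VAT against WT VAT. Its 4 probe sets disagreed in SAT. There the probe set used gave -0.01 for KO-LysM against WT and another gave 0.45, at 8.48 in KO-LysM SAT against 8.03 in WT SAT. Ctss, cathepsin S, the endopeptidase that finishes invariant chain removal in macrophages and dendritic cells, averaged 11.46 ± 0.16 in KO-LysM VAT, 11.59 ± 0.15 in WT VAT, 11.72 ± 0.12 in KO-LysM SAT and 11.75 ± 0.08 in WT SAT. It did not pass in any comparison, and its confidence interval in SAT, KO-LysM minus WT, ran from -0.22 to 0.15.

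The exopeptidases were Ctsh, an aminopeptidase, Ctsc, a dipeptidyl peptidase that activates granule serine proteases, and Ctsz, a carboxypeptidase also known as cathepsin X. Ctsz was the only one of these to pass. Its values were 11.64, 11.58, 11.63 and 11.57 in KO-LysM VAT and 11.73, 11.91, 11.94 and 11.97 in WT VAT, and in SAT they averaged 12.02 ± 0.04 in KO-LysM and 12.03 ± 0.06 in WT. The KO-LysM VAT pools were the lowest 4 of all 16 arrays, while the 2 SAT groups overlapped. Ctsz fell by 0.28 ± 0.07 in KO-LysM VAT against WT VAT, 1.22-fold (adjusted p = 0.0156), and by 0.42 ± 0.07 in KO-LysM VAT against KO-LysM SAT, 1.34-fold (adjusted p = 0.00227). Its 2 other probe sets fell further in KO-LysM VAT against WT VAT as differences of means, at -0.54 and -0.46. In SAT its change was -0.01 (adjusted p = 0.908), and the difference between its 2 knockout effects did not pass (-0.27, adjusted p = 0.18). The 2 other Ctsz probe sets gave -0.155 and -0.163 in KO-LysM SAT against WT SAT as differences of means. With arrays centred on their medians the VAT change no longer passed.

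Ctsh averaged 9.38 ± 0.31 in KO-LysM VAT, 9.51 ± 0.53 in WT VAT, 9.78 ± 0.24 in KO-LysM SAT and 9.91 ± 0.24 in WT SAT. Ctsc averaged 6.29 ± 0.53, 6.37 ± 0.63, 6.88 ± 0.23 and 6.54 ± 0.29 in the same groups. Both varied more between pools than between groups and neither passed. Day 2 pools lay above day 1 pools in 3 of the 4 groups for both, by 0.21 to 0.84 for Ctsh and by 0.30 to 0.95 for Ctsc as group differences over all 4 groups. Ctsc had the single positive change among the members in KO-LysM SAT against WT SAT, 0.34 with an adjusted p of 0.162, and 2 further Ctsc probe sets were not above background in any group.

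The aspartic protease Ctsd and the carboxypeptidase Ctsa were both highest in WT SAT and lowest in KO-LysM VAT on average. Ctsd, cathepsin D, the main aspartic protease of the lysosome, was at 10.49, 10.35, 10.70 and 10.61 in KO-LysM VAT and 10.15, 10.63, 10.73 and 11.02 in WT VAT. In SAT it was at 10.59, 10.79, 10.89 and 10.85 in KO-LysM and 11.03, 11.21, 11.21 and 11.06 in WT. The WT SAT pools lay above all other arrays, by a narrow margin over WT VAT pool 4. Ctsd fell by 0.35 ± 0.12 in KO-LysM SAT against WT SAT, 1.27-fold (adjusted p = 0.0358), and by 0.49 ± 0.12 in WT VAT against WT SAT, 1.41-fold (adjusted p = 0.0395). Both calls lay near the threshold and were lost in fits that left out 1 array. The first did not pass without WT SAT pools 1, 2 or 3 or KO-LysM SAT pools 1, 3 or 4, each left out alone, with adjusted p between 0.0613 and 0.093, and the second passed in 3 of 16 such fits, with adjusted p up to 0.109.

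Ctsa, cathepsin A, also called protective protein because it stabilises beta-galactosidase and neuraminidase in the lysosome, was at 9.83, 9.70, 10.14 and 9.98 in KO-LysM VAT and 9.75, 10.11, 10.24 and 10.49 in WT VAT. It was at 10.31, 10.46, 10.58 and 10.39 in KO-LysM SAT and 10.60, 10.84, 10.79 and 10.61 in WT SAT. Within each genotype all VAT pools lay below all SAT pools. Ctsa fell by 0.52 ± 0.12 in KO-LysM VAT against KO-LysM SAT, 1.44-fold (adjusted p = 0.0166), and by 0.56 ± 0.12 in WT VAT against WT SAT, 1.48-fold (adjusted p = 0.0175). The knockout depot call was lost without KO-LysM SAT pool 2 or 3 or KO-LysM VAT pool 2 or 4 (adjusted p 0.0552 to 0.072), and the wild-type one with pool 3 of either WT SAT (0.0512) or WT VAT (0.0545) left out. Its change of -0.28 in KO-LysM SAT against WT SAT separated the 2 groups without overlap but had an adjusted p of 0.0737, or 0.0329 without WT VAT pool 1.

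Lgmn, legumain, averaged 7.99 ± 0.34 in KO-LysM VAT, 8.33 ± 0.71 in WT VAT, 8.64 ± 0.25 in KO-LysM SAT and 8.74 ± 0.24 in WT SAT. The WT VAT pools alone spanned 7.45 to 9.15, which covers all other groups, and no comparison of Lgmn passed. Its largest change was -0.65 ± 0.24 in KO-LysM VAT against KO-LysM SAT, with an adjusted p of 0.193.

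Over the 10 members, KO-LysM SAT against WT SAT gave 3 that fell (Ctsl, Ctsk and Ctsd) and none that rose, where 36.7% of all 17097 genes were called, 16.7% higher and 20% lower. The members' median change was -0.11 and that of all genes -0.05. In KO-LysM VAT against WT VAT, Ctsk and Ctsl rose and Ctsz fell, where 15.9% of all genes were called, 10.2% higher and 5.76% lower, and the medians were -0.13 and -0.05. The split of all called genes depended on scaling: 45.5% of those called in SAT and 63.9% of those in VAT were higher in KO-LysM, but 61.6% and 77.1% with each array centred on its median, and quantile normalization gave 51.2% in VAT. The count in SAT, close to the background share, says nothing particular about these genes. Groups did not overlap for 4 members in SAT and 2 in VAT, beside 36% and 12.1% of all genes.

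**Figure D2:**
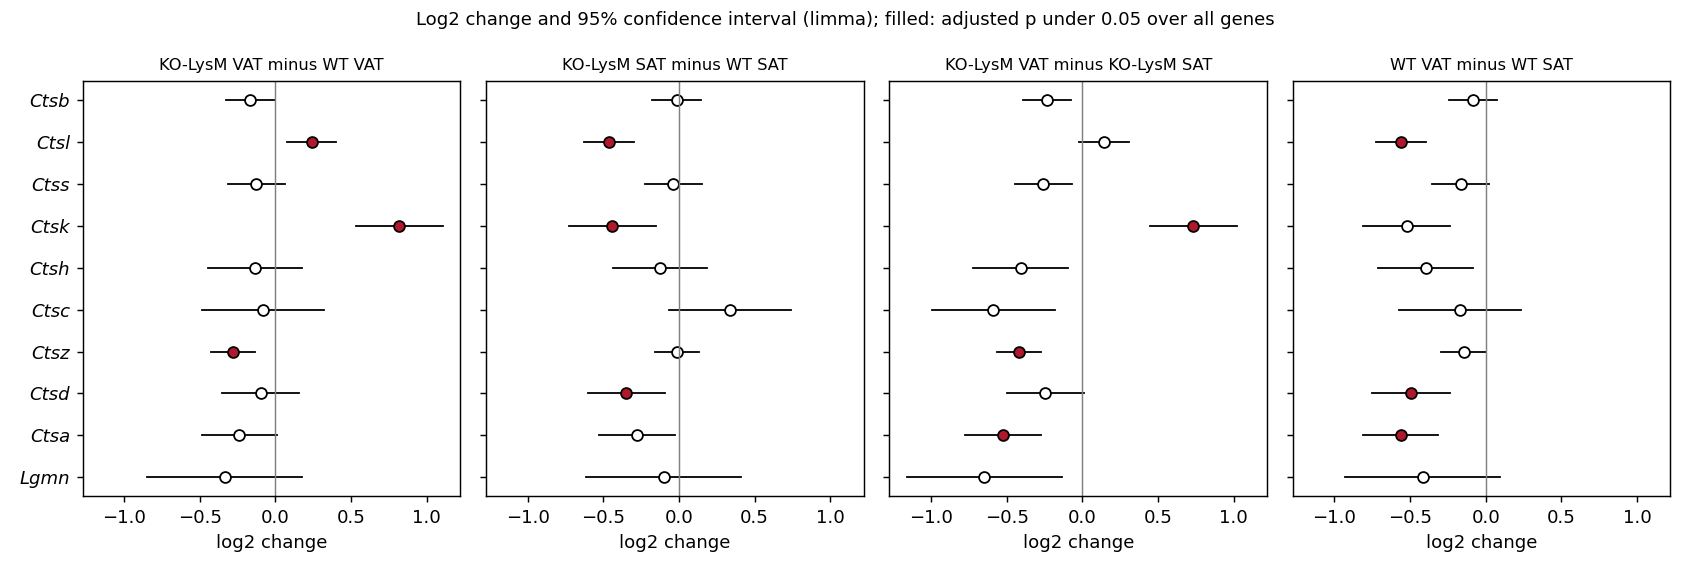
Log2 change (x axis) of each protease (y axis) in the 4 comparisons, with 95% confidence intervals from limma, and filled points where the adjusted p was under 0.05. Ctsk is at 0.82 in KO-LysM VAT minus WT VAT and at -0.44 in KO-LysM SAT minus WT SAT, and 9 of the 10 members are below 0 in the SAT panel.

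Averaged over both depots, Ctsa fell by 0.26 ± 0.08 (adjusted p = 0.0193), Ctsd by 0.22 ± 0.08 (adjusted p = 0.0393) and Ctsz by 0.15 ± 0.05 (adjusted p = 0.0221) in KO-LysM against WT. This is 3 of 10 members, with 51.7% of all genes called, 22.5% higher and 29.2% lower, and no member passed with the arrays centred on their medians, under which 60.5% and not 43.5% of all called genes were higher in KO-LysM. The Ctsd call was lost in 12 of the 16 fits that left out 1 array, with adjusted p up to 0.0773, and those of Ctsa and Ctsz in none. In the same average Lyz2, the gene whose promoter drives Cre, fell by 0.61 (adjusted p = 0.000573) and Cd68 by 0.24 (adjusted p = 0.0156).

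The depot comparisons called few genes over the whole array. In KO-LysM VAT against KO-LysM SAT, Ctsk rose by 0.73 ± 0.14, 1.66-fold (adjusted p = 0.00507), and Ctsz and Ctsa fell, so that 3 of 10 members passed where 4.32% of all genes did, 1.92% higher and 2.39% lower. The members' median change was -0.33 and that of all genes 0.00. In WT VAT against WT SAT, Ctsl fell by 0.56 ± 0.08, 1.47-fold (adjusted p = 0.000983), and Ctsa and Ctsd fell, where 2.84% of all genes were called, 1.52% higher and 1.32% lower. All 10 members were lower in WT VAT, with a median of -0.41 beside -0.02 for all genes. Ctsk had a change of -0.52 ± 0.14 in WT VAT against WT SAT, and its groups did not overlap, but its adjusted p was 0.0534. It passed with WT VAT pool 1, WT VAT pool 4 or WT SAT pool 4 left out, each alone (0.0412 to 0.0477). Groups did not overlap for 5 members between the WT depots and 3 between the KO-LysM depots, beside 3.81% and 10.3% of all genes. The 2 depot comparisons share no arrays, while each knockout comparison shares its arrays with both of them.

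Macrophage markers also differed between groups. None of the 14 rose in KO-LysM against WT. In VAT 3 fell, with a list median of -0.33, and in SAT 3 fell, with a median of -0.07. In the average over depots 6 fell, with a median of -0.22. Of all genes, 5.76%, 20% and 29.2% fell in these 3 comparisons. In KO-LysM VAT against KO-LysM SAT, 6 of 14 macrophage markers fell and none rose, among them Cd68 by 0.64, Csf1r by 0.60 and Adgre1 by 0.86, with a list median of -0.53. In WT VAT against WT SAT 1 fell, C1qc by 0.99, with a list median of -0.45. The summed level of the 14 markers, as log2, was 12.63 to 13.20 in KO-LysM VAT, 12.92 to 13.60 in WT VAT, 13.16 to 13.60 in KO-LysM SAT and 13.42 to 13.76 in WT SAT. The 14 include Lyz2, whose promoter drives Cre and which averaged 9.99, 10.57, 10.48 and 11.12 in the same groups. The part of Lyz2 in this sum and in the mean of the 14 markers was not tested. Fewer macrophages in a pool and less RNA of a gene per macrophage cannot be told apart in such bulk samples. The part of these markers in the results on Ctsa, Ctsz, Ctsd, Ctsl and the other members was not tested. The difference of Ctsa from the mean of the 14 macrophage markers was 1.82 ± 0.10 in KO-LysM VAT, 1.80 ± 0.20 in WT VAT, 1.84 ± 0.12 in KO-LysM SAT and 1.88 ± 0.10 in WT SAT, all 4 groups overlapping. That of Ctsk was 2.00 ± 0.26 in KO-LysM VAT, 0.93 ± 0.30 in WT VAT, 0.76 ± 0.20 in KO-LysM SAT and 0.97 ± 0.07 in WT SAT, so that KO-LysM VAT stood apart on this scale too and WT SAT did not. That of Ctsl was 3.69 ± 0.23, 3.19 ± 0.32, 3.04 ± 0.20 and 3.27 ± 0.13 in the same groups. KO-LysM VAT and not WT SAT was then the highest for Ctsl, and the 2 SAT groups overlapped. That of Ctsz was 3.52 ± 0.28, 3.54 ± 0.37, 3.43 ± 0.19 and 3.20 ± 0.21, all 4 groups overlapping. Only changes between groups have a meaning in these differences, since the probe sets differ.

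Ctsk is also a gene of fibroblasts and osteoclasts. Of 17 measured stromal progenitor markers, 16 were above background in KO-LysM VAT, 16 in WT VAT, 14 in KO-LysM SAT and 15 in WT SAT. The fibrillar collagen Col3a1 rose by 0.90 in KO-LysM VAT against WT VAT and by 1.18 against KO-LysM SAT, where Col1a1 also rose, by 0.72. Fbln1 fell by 0.77 in KO-LysM VAT against WT VAT. The summed stromal level was 13.09 to 13.24 in KO-LysM VAT, 12.69 to 13.53 in WT VAT, 12.87 to 13.20 in KO-LysM SAT and 12.16 to 12.57 in WT SAT, lowest in WT SAT, where Ctsk was the second highest. In KO-LysM SAT against WT SAT, 9 of these markers rose and 2 fell while Ctsk fell. Single stromal genes differed in their order of groups. Col1a1 averaged 10.20 in KO-LysM VAT, 9.92 in WT VAT, 9.49 in KO-LysM SAT and 10.01 in WT SAT. Col3a1 averaged 9.93, 9.03, 8.75 and 9.05 in the same groups. Both were highest in KO-LysM VAT and next in WT SAT, as Ctsk was, although WT VAT was close for Col3a1. Dcn averaged 10.29, 10.34, 10.18 and 9.43, lowest in WT SAT. Of 10 peritoneal macrophage genes, 5 rose and 1 fell in KO-LysM VAT against WT VAT, and 1 rose and 5 fell in KO-LysM SAT against WT SAT. Beside these, 10.2% of all genes rose and 5.76% fell in VAT, and 16.7% rose and 20% fell in SAT. The summed level of the peritoneal macrophage genes was 10.99 to 11.21 in KO-LysM VAT, 9.61 to 10.18 in WT VAT, 9.79 to 10.19 in KO-LysM SAT and 10.38 to 10.84 in WT SAT, an order of groups like that of Ctsk. Of 11 measured genes of osteoclasts or their regulation, 1 rose and 2 fell in KO-LysM VAT against WT VAT. The integrin subunit Itgb3 rose by 1.26 and the protease Mmp9 fell by 0.76. The other that fell, by 2.51, was Tnfrsf11b, a decoy receptor listed as a regulator and not as a marker of osteoclasts. Calcr and Ocstamp were under the background level in all 4 groups, and Acp5 passed in no comparison. The part of these cells in the Ctsk result was not tested.

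Summed T cell and muscle markers set WT SAT apart, the group in which Ctsl was highest. Summed B cell markers and mast cell and basophil markers of WT SAT overlapped another group. In KO-LysM SAT against WT SAT, where Ctsk and Ctsl fell, all 8 skeletal muscle markers fell, as did 7 of 8 T cell, 4 of 6 B cell and 7 of 9 mast cell and basophil markers, while 6 of 10 endothelial and 6 of 6 seminal vesicle markers rose. Of all genes, 20% fell and 16.7% rose there. The difference of knockout effects between depots, positive for Ctsk and Ctsl, was also positive for 8 of 8 muscle, 5 of 8 T cell and 4 of 6 B cell markers, and negative for 4 of 10 endothelial, 7 of 17 stromal and 6 of 6 seminal vesicle markers. It passed as positive for 2.1% and as negative for 2.12% of all genes. Summed T cell markers were at 8.22 to 9.02 in KO-LysM VAT, 8.22 to 8.45 in WT VAT, 8.16 to 8.24 in KO-LysM SAT and 9.13 to 9.66 in WT SAT, with WT SAT above all other arrays, as for Ctsl. Summed B cell markers were at 8.02 to 8.61, 7.94 to 8.38, 7.64 to 7.99 and 8.48 to 8.98 in the same groups, and summed muscle markers at 8.93 to 9.78, 7.84 to 8.24, 7.77 to 8.03 and 10.94 to 11.90. Summed endothelial markers were at 8.98 to 10.20, 9.06 to 10.26, 10.24 to 10.64 and 9.12 to 9.42, highest in KO-LysM SAT on average. Summed seminal vesicle markers set KO-LysM SAT apart, at 12.60 to 13.33 against 8.64 to 9.95 in WT SAT. The part of these cells in the results on Ctsk and Ctsl was not tested.

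Across the 16 arrays, 8 members varied together, Ctsk did not follow them, and Ctsl followed some of them in part. The 28 Pearson correlations among the 8 ran from 0.49 to 0.95, with a median of 0.82. Those of Ctsk with the 8 ran from -0.37 to 0.28, and Ctsk and Ctsl correlated at 0.66. Those of Ctsl with the 8 ran from 0.22 to 0.76, with a median of 0.43 and the highest with Ctsd. These values describe the arrays, which share groups, days and pools, and carry no test. WT VAT pool 1 was low and WT VAT pool 4 high for most members; for Lgmn they marked the range of 7.45 to 9.15. Set against the mean of the 10 members on the same array, Ctsa was at -0.20 ± 0.01 in KO-LysM VAT, 0.00 ± 0.04 in WT VAT, 0.08 ± 0.05 in KO-LysM SAT and 0.21 ± 0.05 in WT SAT. Only the WT VAT and KO-LysM SAT ranges overlapped on this scale, whose mean includes Ctsk and Ctsl. Across arrays Ctsa varied with the other members of the 8, at a correlation of 0.95 with Ctsd and 0.91 with Lgmn.

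**Figure D3:**
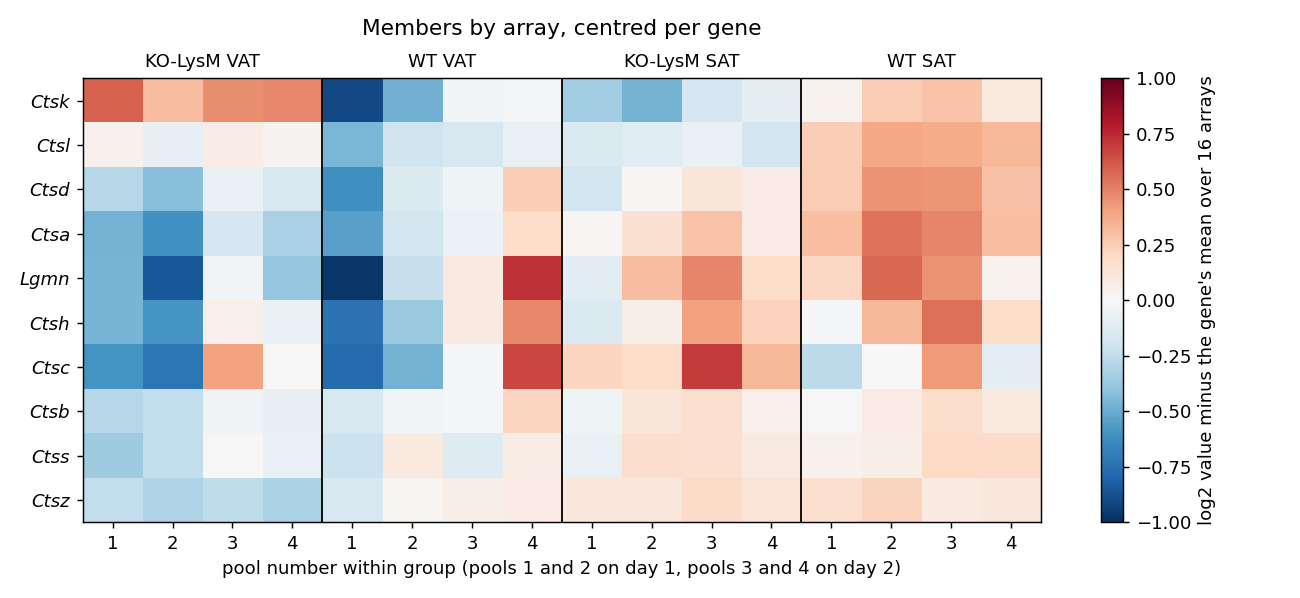
Log2 value minus the gene's mean over 16 arrays (colour, from -1 to 1) for the 10 proteases (y axis) in each pool (x axis, grouped by genotype and depot). Ctsk is raised in KO-LysM VAT and WT SAT and Ctsl in WT SAT, while most other genes share a low WT VAT pool 1 and a high WT VAT pool 4.

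Among 8275 genes of above-median level, the 2 most like each member were found by Pearson correlation over the 16 arrays, as a description. For Ctsk they were Serpinb6a, a cytosolic inhibitor of cathepsin G (0.96), and Tmem198b (0.96). Serpinb6a averaged 10.07 in KO-LysM VAT, 9.21 in WT VAT, 9.32 in KO-LysM SAT and 9.60 in WT SAT, the order seen for Ctsk. For Ctsl they were Folr2, a folate receptor of resident macrophages (0.94), and Cfp, properdin of the complement system (0.92). Folr2 averaged 7.37 in KO-LysM VAT, 6.82 in WT VAT, 7.33 in KO-LysM SAT and 8.54 in WT SAT. Ctsa lay closest to Cst3, the secreted inhibitor cystatin C (0.97), and Ctsh to Cstb, the cytosolic inhibitor cystatin B (0.96). The second most like gene was Mfsd12 for Ctsa (0.97) and Creg1 for Ctsh (0.96). Ctsb lay closest to Fcer1g, the signalling chain of Fc receptors, and to the cytokine receptor chain Csf2rb (both 0.97), and Ctss to Ms4a6d (0.94) and the lectin Clec4d (0.92). Ctsc lay closest to Nceh1, a cholesterol ester hydrolase (0.97), and BC005537 (0.95), and Ctsz to the adaptor Pik3ap1 (0.94) and the hexokinase Hk3 (0.93). Ctsd lay closest to S100a10 and Rgl1 (both 0.96), and Lgmn to the kinase Syk (0.96) and the stress factor Atf3 (0.94).

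The rest of the lysosome was read from lists of genes with known roles, whose median changes stand beside -0.05 for all genes in each knockout comparison, -0.02 in WT VAT against WT SAT and 0.00 in KO-LysM VAT against KO-LysM SAT. Of 16 other cathepsins and related genes, among them placental forms, Tinag, Tinagl1 and Napsa, 4 fell in KO-LysM SAT against WT SAT. Of all genes, 20% fell there. Ctsw, a cathepsin of cytotoxic lymphocytes, averaged 4.70 in KO-LysM SAT, under the background level, and 5.54 in WT SAT. The median of the 16 was -0.13 in that comparison. None of the 16 passed in KO-LysM VAT against WT VAT or between depots. Of 11 cathepsin inhibitors, Serpinb6a rose by 0.86 in KO-LysM VAT against WT VAT and by 0.74 against KO-LysM SAT, and was the only one to pass in either, with list medians of -0.04 and 0.03. Cst3, the cystatin most like Ctsa over the arrays, fell by 0.26 in KO-LysM against WT averaged over depots, as Ctsa did, and passed in none of the 4 single comparisons, nor did Cstb. Cst3 and Serpinb6a were the genes most correlated with Ctsa and Ctsk over these same arrays, so their like changes add no separate support.

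Of 32 lysosomal hydrolases, 3 rose and 1 fell in KO-LysM SAT against WT SAT, with a change of 0.63 for Acp2, acid phosphatase, and of -0.80 for Hyal1, a hyaluronidase. In KO-LysM VAT against WT VAT, 1 of the 32 rose, the nuclease Dnase2a. The list medians were 0.03 in SAT and 0.11 in VAT, and -0.11 between the KO-LysM and -0.14 between the WT depots. Between depots the hydrolases that passed all fell: Gla, Lipa and Scpep1 in KO-LysM VAT against KO-LysM SAT, by 0.79, 0.44 and 0.45, and Hyal1 and Dpp7 in WT VAT against WT SAT, by 1.17 and 0.69. Scpep1 is a serine carboxypeptidase related to Ctsa, which fell in the same comparison.

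Of 18 lysosomal membrane and activator proteins, 3 rose and none fell in KO-LysM SAT against WT SAT: Scarb2, the carrier of glucocerebrosidase, by 0.91, Lamp2 by 0.84 and Sppl2a, which clears the stub of the invariant chain, by 0.83. Their median was 0.0046 there. In KO-LysM VAT against WT VAT 2 rose and 2 fell, Lamp2 again among those that rose, by 0.54, and the sphingolipid activator Gm2a among those that fell, by 0.45. In the same SAT comparison 3 of the 10 proteases fell. Of 11 sorting genes, 3 rose in each depot, and Vps35 of the retromer complex rose in both, by 0.93 in SAT and by 0.67 in VAT. In SAT 2 sorting genes fell, Sorl1 by 0.65 and Sort1 by 0.38, and the list medians were 0.24 in SAT and 0.14 in VAT. Of 15 subunits of the vacuolar ATPase, the pump that acidifies lysosomes, 2 rose in each depot in KO-LysM, and 3 fell in KO-LysM VAT against KO-LysM SAT, among them Tcirg1 by 0.52, with list medians of 0.17 in SAT, 0.11 in VAT and -0.22 between the KO-LysM depots.

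Of 14 genes of the TFEB family and its control by mTORC1, Fnip1, a folliculin partner, rose by 1.15 in KO-LysM SAT against WT SAT and by 1.10 in KO-LysM VAT against WT VAT, with list medians of 0.21 and 0.28. Tfeb averaged 4.94 in KO-LysM VAT, 5.19 in WT VAT, 5.09 in KO-LysM SAT and 5.28 in WT SAT, close to background, and passed in neither depot. Tfec, a macrophage member of the family, fell by 0.66 in WT VAT against WT SAT and by 0.29 in KO-LysM SAT against WT SAT, as Ctsl and Ctsd did in both.

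Of 13 genes of MHC class II processing, which Ctss and Ctsl serve, 7 fell and none rose in KO-LysM VAT against KO-LysM SAT, with a change of -1.10 for H2-Eb1 and of -0.90 for Cd74, the invariant chain itself. In KO-LysM VAT against WT VAT 5 fell and none rose, with a change of -0.69 for Cd74, while Ctss had a change of -0.13 (adjusted p = 0.30). In KO-LysM SAT against WT SAT 5 rose and 5 fell. The list medians were -0.52 between the KO-LysM depots, -0.28 in VAT and 0.20 in SAT. Shares of the lists that passed can be read beside the shares of all genes, 36.7% in KO-LysM SAT against WT SAT and 15.9% in KO-LysM VAT against WT VAT. Between depots these shares were 4.32% in KO-LysM and 2.84% in WT.

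**Figure D4:**
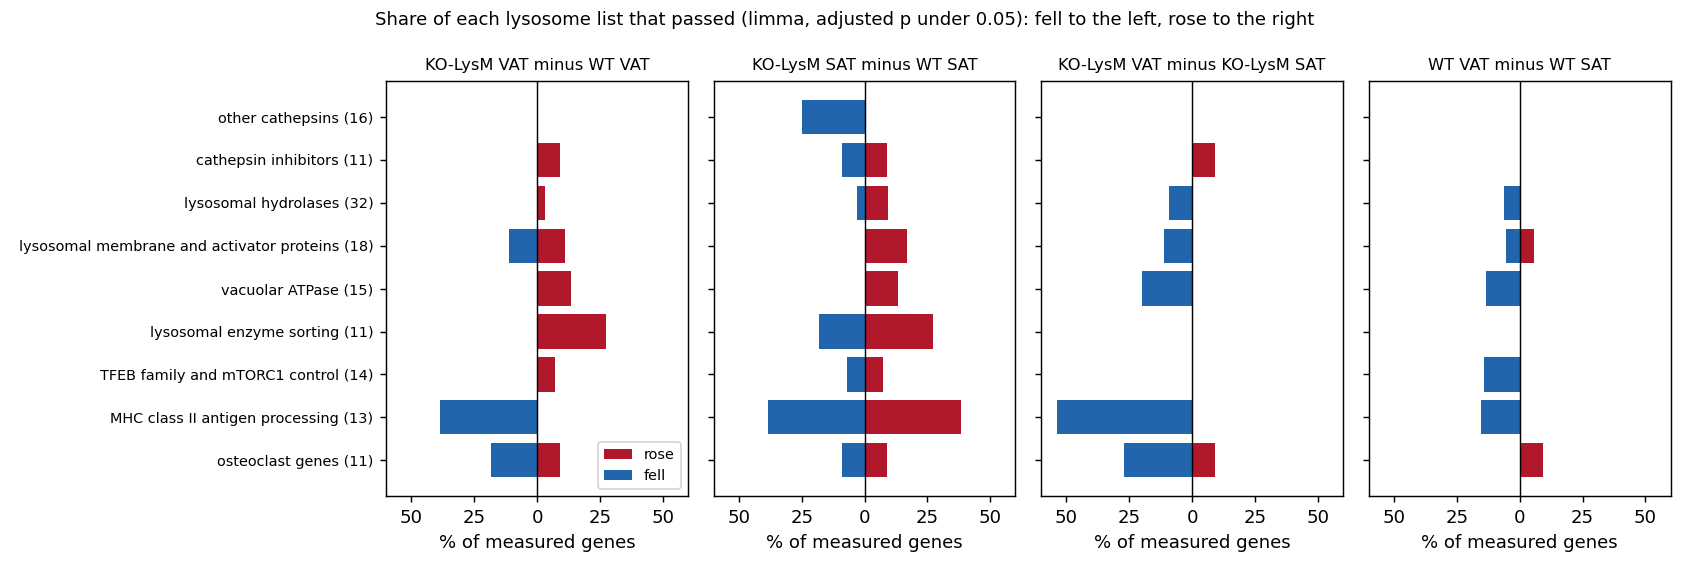
Share of the measured genes of each list (number measured in brackets) that fell (left, blue) or rose (right, red) in the 4 comparisons, in percent on the x axis, at an adjusted p under 0.05. The MHC class II list has 7 of 13 genes to the left in KO-LysM VAT minus KO-LysM SAT, and other cathepsins have no bar outside KO-LysM SAT minus WT SAT.

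Members with several probe sets allow a check within the gene. Ctsl, Ctsz and Ctsa gave the same sign with each of their probe sets in all 4 comparisons. The second Ctsa probe set changed by -0.25 in WT VAT against WT SAT and -0.29 in KO-LysM VAT against KO-LysM SAT, smaller than the -0.56 and -0.52 of the one used. Ctsb differed between probe sets, as given above.

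**Figure D5:**
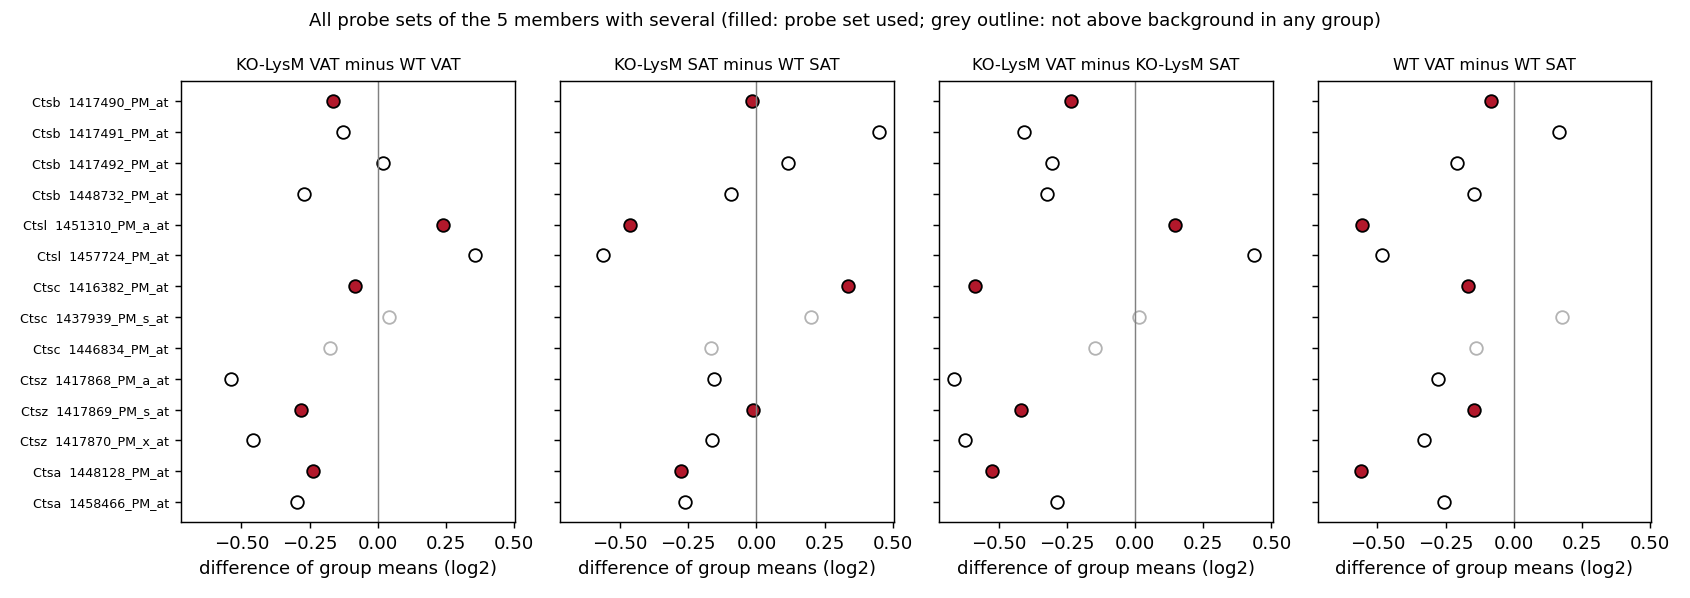
Difference of group means (x axis, log2) for each probe set (y axis) of the 5 members with more than 1, with filled points for the probe set used and grey outlines for those not above background in any group. The 2 Ctsl probe sets lie on the same side of 0 in all 4 panels, and the Ctsb probe sets lie between -0.09 and 0.45 in KO-LysM SAT minus WT SAT.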

How the data were processed

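RNA of CD11b-selected adipose macrophages from 16 pools was hybridised to 16 Affymetrix PM arrays. The deposited values are log2 probe set intensities, made by the authors with RMA in affy per the submitters' processing notes (versions not given in the sources used here). RMA commonly equalises the distributions of arrays, but the deposited distributions differ in interquartile range, and whether all arrays were processed together is not given, so small changes depend on scaling. Of 45141 probe sets, 104 are controls, and the rest have 1 gene symbol (28898), several (551) or none (15588) in GEO's annotation. Only those with 1 symbol were used, and 17097 genes were represented by the probe set of highest mean. Groups, with 4 pools each, came from the labels. One limma model (version 3.58.1, R 4.3.3) of group plus day was fitted over all arrays and genes, with Benjamini-Hochberg adjustment per comparison and a threshold of 0.05. Single values between arrays had exact permutation tests. The code was tested on simulated data. The members and lists were chosen with earlier results of these data known. All 10 members are named, and outside them the 2 genes most correlated with each member and list genes that passed or mark a cell type. Deviations of equally numbered pools correlated at 0.18 to 0.42 for pool 1 and 0.42 to 0.59 for pool 3, but at -0.37 to 0.63 for pool 2 and -0.48 to 0.61 for pool 4. As not every pair was over 0.1, pool number was no block. Alternatives varied the day term, arrays, probe set choice, low-value filter, scaling and variance model, and left out each array in turn.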

Additional observations from a re-analysis of the deposited data

Results flagged for a closer look

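The knockout effect differed between depots for 2 of the 10 members, by a test of the difference itself over all 17097 genes. For Ctsk the effect in VAT minus the effect in SAT was 1.26 (95% confidence interval 0.85 to 1.67, limma, adjusted p = 0.00104), with all 4 KO-LysM VAT pools above all 4 WT VAT pools and all 4 KO-LysM SAT pools below all 4 WT SAT pools. For Ctsl it was 0.70 (0.47 to 0.94, adjusted p = 0.00123), with all 4 KO-LysM SAT pools below WT SAT and 1 KO-LysM VAT pool inside the WT VAT range. Depot genes also ran in opposite directions in the 2 genotypes (Emx2 8.50 in KO-LysM VAT and 5.24 in KO-LysM SAT, 5.45 in WT VAT and 6.78 in WT SAT), so the depot of these arrays is known from the labels alone, and the part of that in the 2 results was not tested. In 40 combinations of member and group no array stood far from the other 3 by Dixon's test at its 95% critical value.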

How the results depend on the processing

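The difference of knockout effects between depots passed for Ctsk under all 12 alternatives run (0.82 to 1.70) and for Ctsl under 11, day 1 alone giving 0.76 (adjusted p = 0.0889). Leaving out each array in turn gave 3071 to 7960 genes and 1 to 4 members in KO-LysM SAT against WT SAT, 1115 to 4007 and 2 to 3 in KO-LysM VAT against WT VAT, 231 to 1711 and 1 to 4 in WT VAT against WT SAT, 461 to 1054 and 2 to 4 in KO-LysM VAT against KO-LysM SAT, 7289 to 9469 and 2 to 4 in the average, and 546 to 1310 and 2 to 3 for the difference of effects. The extremes came without WT SAT pool 4 (3071), KO-LysM SAT pool 1 (3625), KO-LysM VAT pool 1 (1115), pool 2 (1467) or pool 3 (1302), WT VAT pool 1 (1541 in VAT, 1711 between WT depots, 1310 for the difference), pool 2 (1507) or pool 3 (231), WT SAT pool 3 (249) and KO-LysM SAT pool 2 (461) or pool 3 (468). With 1 member left were KO-LysM SAT against WT SAT without pool 2 of WT SAT or pool 3 of KO-LysM SAT, and WT VAT against WT SAT without pool 3 of either group.

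In the order KO-LysM SAT against WT SAT, KO-LysM VAT against WT VAT, WT depots, KO-LysM depots, average and difference of effects, the changed counts were as follows. A replicate block on pool number, where pools share only a number, gave 5579, 2150, 362, 626, 8317 and 618 genes and 3, 2, 2, 3, 3 and 2 members, without Ctsl in VAT and Ctsd between WT depots. No day term gave 3563, 986, 212 and 422 genes and 455 for the difference, with 1 member in SAT and 1 between WT depots. Day 1 alone gave 582, 5376, 199 and 262 genes and 330 for the difference, with 0, 1, 0 and 1 members, 0 in the average and 1 for the difference. Day 2 alone gave 331 genes and 0 members in VAT, 4222 and 1 between WT depots, 199 and 1 between KO-LysM depots, 4279 and 0 in the average and 1904 genes for the difference. Only the arrays of the groups compared gave 1238 genes and 1 member in VAT, 60 and 0 between WT depots and 2047 and 8 between KO-LysM depots. Median centring gave 1 member in SAT, 315 genes and 1 member between WT depots and 0 members in the average. Quantile normalization gave 5 members in SAT, 6 in VAT, 5 with 1148 genes between WT depots, 7 with 1111 genes between KO-LysM depots and 6 in the average; 39.3% of genes called in SAT were then higher. Array weights gave 2203 genes and 9 members between KO-LysM depots, 5 members in the average and 1209 genes for the difference. Array spread as a term gave 1308 genes and 6 members in SAT, 5 members in VAT, 1502 and 6 between WT depots, 1968 and 7 between KO-LysM depots, 1353 and 5 in the average and 1694 genes for the difference. The difference in array interquartile range was 0.23 on day 2 alone (exact permutation test, p = 0.0571). The causes were not tested.

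Signs turned only for changes that had not passed, of up to 0.42 in size (Lgmn between WT depots, -0.42). On day 1 alone these were Ctsh (0.0223) and Ctsd (0.0242) in VAT and Ctsh (0.22) and Lgmn (0.24) for the difference. On day 2 alone they were Ctsz (0.0581) and Lgmn (0.0899) in SAT, Ctsc (0.16) and Lgmn (0.16) between WT depots, and Ctss (0.059) and Ctsa (-0.0931) for the difference. Ctsb became 0.11 in SAT with the mean of probe sets, and with the probe set of largest variance 0.45 in SAT (limma, adjusted p = 0.0112, passed), 0.17 between WT depots and 0.16 in the average. Centring gave Ctsb 0.074, Ctss 0.053 and Ctsz 0.0777 in SAT. Quantile normalization gave Ctsb 0.0372 in SAT, Ctsk -0.0439 and Ctsc -0.0139 in the average and Ctsa -0.0063 for the difference. Array spread as a term gave Ctss 0.0055 and Ctsc -0.19 in SAT, Ctsk -0.21 and Ctsc -0.30 in the average, and Ctsh 0.18 and Lgmn 0.0937 for the difference. Without single arrays Ctsb ran from -0.0579 to 0.018, Ctss from -0.092 to 0.0013, Ctsz from -0.0365 to 0.0198 and Lgmn from -0.27 to 0.064 in SAT, Ctsh from -0.27 to 0.001 and Ctsc from -0.20 to 0.10 in VAT, and Ctsh from -0.14 to 0.13 and Ctsa from -0.0703 to 0.12 for the difference. Arrays number 4 a group, and probe sets near background, such as those of Sucnr1 and 2 of Ctsc, cannot show a difference.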
